A study of Mus musculus with 7 samples.

Results

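Cluster 16 is a group of 59 cells in the authors' clustering of myeloid cells from mice with and without Lewis lung carcinoma (LLC), and its leading transcripts are the interferon-induced genes Ifit3b, Ifit3 and Ifit1. Its members were all cells that the deposited cell annotation puts in cluster 16 and that have a column in the gene count table, which was the case for each of its cells. They made up 59 of 4290 counted cells. Of these 59 cells, 11 came from tumor-bearing and 48 from naive C57/Bl6 mice. They were set against the remaining 2314 counted cells from the blood, marrow and spleen libraries, called the other circulating cells below, and against the 198 cells of cluster 10 in the tumor tissue library.

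The study enriched CD11b+ cells by magnetic separation, stained them with oligo-tagged antibodies and read RNA and antibody tags of single cells from 7 libraries. Tumor-bearing mice carried LLC, a transplantable mouse lung carcinoma line, at day 14, and gave blood, bone marrow, spleen and tumor tissue. Naive mice without tumor gave blood, bone marrow and spleen. All mice were of the C57/Bl6 strain, and the labels give no sex, no age and no link between tissues of an animal. With a single library for every tissue and state, nothing below has a replicate check or a test, and each value describes these libraries.

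Interferons are secreted proteins by which cells warn of viruses and of nucleic acids out of place. Type I interferons bind the receptor chains Ifnar1 and Ifnar2, the kinases Jak1 and Tyk2 then phosphorylate Stat proteins, and these join Irf9 to bind a short DNA element in the promoters of interferon-stimulated genes. The products include the Ifit proteins, which bind viral RNA and block its translation, and Isg15, a ubiquitin-like protein that is attached to other proteins. Monocytes are blood-borne myeloid cells that respond strongly to interferons. Classical mouse monocytes carry much Ly6c2 and Ccr2, and the non-classical ones that patrol vessels carry Ace, Spn and Treml4.

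The 7 libraries held 617821 to 20844058 unique molecular identifiers (UMIs, counted RNA molecules). Cluster 16 held 703789 UMIs, the other circulating cells 25930092 and tumor cluster 10 held 1727415. The median cell held 12125 UMIs in cluster 16, with a range of 2894 to 19052, against 10984.5 in the other circulating cells and 8688 in cluster 10. The median mitochondrial share of UMIs was 2.78% in cluster 16, against 3.10% in the other circulating cells and 3.24% in cluster 10. Ribosomal protein genes took 15.97% of the UMIs of cluster 16, against 17.3% in the other circulating cells and 11.1% in cluster 10, and the part of these shares in the differences below was not tested. Of the cell barcodes, 2 occurred in more than 1 library, and 0 of them belonged to cluster 16.

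Cluster 16 was present in all 6 circulating libraries and absent from tumor tissue. In blood 5 of 354 counted cells of tumor-bearing mice (1.41%, 0.460 to 3.27) and 35 of 814 of naive mice (4.30%, 3.01 to 5.93) belonged to it. It held 1 of 57 cells in tumor-bearing bone marrow and 5 of 153 (3.27%) in naive bone marrow. In spleen it held 5 of 579 cells (0.864%) in tumor-bearing and 8 of 416 (1.92%) in naive mice. In parentheses stand exact 95% Clopper-Pearson intervals, which cover counting error only. Enrichment on magnets and cell filtering by the authors can set such shares, so no direction is read from them. Naive blood gave 35 of the 59 cells and tumor-bearing bone marrow 1, so RNA values pooled over the cluster weigh mostly naive blood. In the 8 coarser clusterings that the authors deposited, the 59 cells also stayed in 1 group. At resolution 0.2 that group held 62 cells, of which 3 came from cluster 2, and at resolutions 0.3 to 0.9 it also held 195 to 428 cells that resolution 1 puts in cluster 2 and up to 50 from other clusters.

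The label of monocytes was checked against marker genes. None of the 10 leading genes of cluster 16 (Cxcl10, Ifit3, Ifit1bl1, Ifit1, Ifit2, Rsad2, Ifit3b, Usp18, Isg15 and Oasl1) is among the 10 monocyte markers used, so the group is called cluster 16 here. All 10 monocyte markers were nevertheless detected, at a summed 26371 counts per 1000000 UMIs (CPM) in cluster 16, against 20726 CPM in the other circulating cells. Gene by gene there was no such rise, and the median log2 ratio over these markers was -0.02. Past 2-fold lay 2 of them on the higher side and 1 on the lower, while 7 stayed within it. The sum ran from 20917 to 30132 CPM over the 6 libraries of cluster 16. B cell markers summed to 273 CPM in cluster 16, against 355 CPM in the other circulating cells. Of the 8 markers 4 were detected in cluster 16, with 158 UMIs for Ighm, and Cd79a, Ms4a1 and Pax5 had 0 UMIs. Plasmacytoid dendritic cells are the best-known interferon producers, and their markers summed to 1189 CPM in cluster 16, against 397 CPM in the other circulating cells. Both measured markers of this set were higher, with a median log2 ratio of 1.47. Bst2, itself interferon-induced, stood at 1005 CPM in cluster 16 and 301 CPM in the other circulating cells, and Tcf4, a transcription factor of these cells, was 2.33-fold (1.93 to 2.79) higher at 179 CPM. Of the 8 markers Siglech, Cox6a2, Klk1 and Cd300c had 0 UMIs in cluster 16, and the part of such cells in the result was not tested. Neutrophil markers summed to 2023 CPM in cluster 16, against 3578 CPM in the other circulating cells, and basophil and mast cell markers had 0 UMIs in cluster 16.

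The interferon-induced leaders share a promoter element in part. Stretches of 250 bases before the transcript start are shown for the Ifit genes that define the cluster, for the chemokine gene Cxcl10 and for Isg15. They are from RefSeq (GRCm38.p6), written 5′ to 3′ on the strand of the gene. Capitals mark matches, on either strand, to GAAA, any 2 bases, GAAA, the core of the element bound by the complex of Stat proteins and Irf9.
Ifit1 (chr19:34640639-34640888, plus strand): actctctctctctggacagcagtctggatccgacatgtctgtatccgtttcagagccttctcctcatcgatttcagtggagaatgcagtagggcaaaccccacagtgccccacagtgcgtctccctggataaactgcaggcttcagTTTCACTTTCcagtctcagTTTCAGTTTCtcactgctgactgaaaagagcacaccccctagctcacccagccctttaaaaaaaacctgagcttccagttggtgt
Ifit3 (chr19:34583279-34583528, plus strand): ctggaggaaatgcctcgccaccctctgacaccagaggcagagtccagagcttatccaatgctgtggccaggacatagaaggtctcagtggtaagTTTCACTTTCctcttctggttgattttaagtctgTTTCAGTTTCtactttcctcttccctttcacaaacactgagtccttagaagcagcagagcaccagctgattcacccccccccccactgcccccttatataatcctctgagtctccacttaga
Ifit3b (chr19:34607707-34607956, plus strand): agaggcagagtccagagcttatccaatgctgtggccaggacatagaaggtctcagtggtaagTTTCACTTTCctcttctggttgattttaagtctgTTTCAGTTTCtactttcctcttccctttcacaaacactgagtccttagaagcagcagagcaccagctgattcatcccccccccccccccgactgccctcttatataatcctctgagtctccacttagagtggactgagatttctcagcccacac
Cxcl10 (chr5:92348890-92349139, minus strand): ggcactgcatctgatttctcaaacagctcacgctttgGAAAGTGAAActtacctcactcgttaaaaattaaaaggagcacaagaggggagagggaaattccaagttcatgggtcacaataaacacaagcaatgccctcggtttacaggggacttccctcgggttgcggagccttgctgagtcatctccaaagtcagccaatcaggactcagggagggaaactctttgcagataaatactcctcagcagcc
Isg15 (chr4:156200819-156201068, minus strand): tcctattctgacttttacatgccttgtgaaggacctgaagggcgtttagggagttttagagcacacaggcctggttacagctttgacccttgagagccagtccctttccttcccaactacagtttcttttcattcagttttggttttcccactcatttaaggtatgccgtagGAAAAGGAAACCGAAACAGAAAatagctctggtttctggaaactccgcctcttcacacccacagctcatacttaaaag
In Ifit1 the matches begin 104 and 85 bases before the transcript start, in Ifit3 156 and 122 bases, and in Ifit3b 188 and 154 bases. Cxcl10 holds 1 match at 213 bases, and Isg15 holds 3 that overlap each other, at 78, 72 and 66 bases. The Ifit3 and Ifit3b windows share an unbroken run of 169 bases. The same search found no match in either window of Ifit2, and 1 in that of Rsad2. The element lay in the window of 56 of the 243 genes at least 2-fold higher in cluster 16 that have a window (23.05%), counting windows of 300 bases that include 50 after the start. It lay in that of 6 of the 241 genes at least 2-fold lower (2.49%), 205 of the 4206 measured genes (4.87%) and 1079 of all 27025 genes with a window (3.99%). A match is a match of letters and not a measured site.

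Every measured Ifit gene stood at a high level in cluster 16. The genes lie within 1 stretch of chromosome 19 (GRCm38), from Ifit2 (34550694 to 34576419) over Ifit3 (34583531 to 34588731), Ifit1bl1 (34592891 to 34601956) and Ifit3b (34607970 to 34613401) to Ifit1 (34640871 to 34650009). Ifit3 reached 2702 CPM in the cluster 16 cells of tumor-bearing blood, against 49.2 CPM in the other cells of that library, and 1721 against 59.9 CPM in naive blood. In bone marrow it stood at 245 CPM in the single cluster 16 cell of tumor-bearing mice, against 122 CPM in other cells, and at 1362 against 59.0 CPM in naive mice. In spleen it stood at 864.5 against 58.1 CPM in tumor-bearing and at 1515 against 43.1 CPM in naive mice. Cluster 16 was thus higher in 6 of 6 libraries, and its lowest value lay above the highest of the other cells.

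Ifit1 stood at 1372 CPM in cluster 16 of tumor-bearing blood, against 31.4 CPM in other cells, and at 966 against 29.5 CPM in naive blood. It stood at 164 against 77.6 CPM in tumor-bearing and 691 against 29.5 CPM in naive bone marrow, and at 564 against 30.5 CPM in tumor-bearing and 845.5 against 21.2 CPM in naive spleen. Ifit3b, which encodes a near copy of Ifit3, ran from 81.3 CPM in naive bone marrow to 308 CPM in naive blood within cluster 16, against 4.94 to 16.5 CPM in the other cells of the 6 libraries. Both were higher in cluster 16 in 6 of 6 libraries, with no overlap between the groups. Ifit2 was higher in 5 of 6, and in tumor-bearing bone marrow it stood at 81.8 CPM in the single cluster 16 cell, against 89.2 CPM in other cells. The other cells of that library include 1 cluster 10 cell, whose part in their values was not tested.

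Summed over libraries, the folds of cluster 16 over the other circulating cells were 29.9 (95% interval 27.6 to 32.3) for Ifit3, 31.2 (28.05 to 34.6) for Ifit1 and 38.5 (31.1 to 47.7) for Ifit3b. They were 29.8 (26.2 to 33.9) for Ifit2 and 59.8 (49.1 to 72.9) for Ifit1bl1. These intervals are exact conditional binomial ones for the 2 UMI counts, and they cover counting error only. UMIs of 1 cell are not independent, so they are too narrow. The clusters were drawn from RNA of these cells, and each such fold is a description. The sixth Ifit gene, Ifit1bl2, had 0 UMIs in cluster 16 and 18 in the other circulating cells, too few to measure. Ifit3 and Ifit3b, and Ifit1 and Ifit1bl1, are near copies whose reads the authors' counting could have split, so their separate values are uncertain.

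The signal was spread over the cells of cluster 16 rather than held by a few. Ifit3 and Isg15 were detected in 59 of 59 cells, with a median of 17 and 24 UMIs per cell, Rsad2 in 58 and Ifit1 in 54. The 64 genes of an interferon-stimulated list took 1.90% to 5.13% of the UMIs of a cell, with a median of 3.21% in cluster 16, against 0.825% in the other circulating cells. By library the median in cluster 16 was 3.74% in tumor-bearing and 3.34% in naive blood, 2.72% in the 1 cell of tumor-bearing and 3.21% in naive bone marrow, and 2.62% in tumor-bearing and 2.73% in naive spleen. The medians of the other cells lay between 0.784% and 0.851% in the same libraries. Among the other circulating cells 83 of 2314 (3.59%) reached the lowest cluster 16 cell, and 78 of these 83 belonged to cluster 2. A single one reached the cluster 16 median, a cluster 10 cell in tumor-bearing bone marrow with 6.09%.

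**Figure D1:**
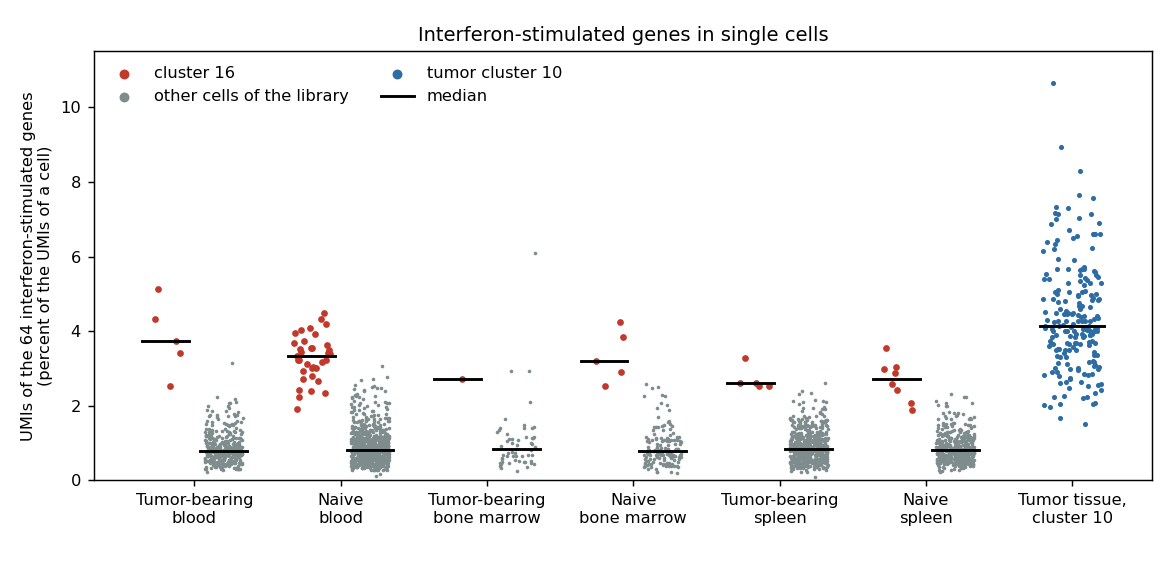
Share of the UMIs of each cell (y axis, percent) that fell on the 64 interferon-stimulated genes, by library (x axis), with 1 point per cell and a bar at the median. Cluster 16 cells sit between 1.90% and 5.13%, above most other cells of their libraries, whose medians lie between 0.784% and 0.851%, and the 198 tumor cluster 10 cells have a median of 4.14%.

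Among the circulating clusters compared, cluster 16 stood highest in these genes and cluster 2 came next. Ifit3 stood at 1681 CPM in cluster 16, 223 in cluster 2, 31.8 in cluster 6, 21.4 in cluster 4 and 8.68 to 11.4 in clusters 1, 0 and 12. Against cluster 2 alone, cluster 16 was 7.53-fold higher for Ifit3, 8.70-fold for Ifit1, 13.9-fold for Cxcl10 and 3.88-fold for Isg15. The median share of the interferon-stimulated list was 1.43% in cluster 2. After every cell was thinned to 5000 UMIs, Ifit3 was detected in 96.6% of cluster 16 cells, against 51.4% in cluster 2, 14.5% in the other circulating cells and 3.85% in cluster 12. Without thinning those shares were 100%, 68.5%, 23.1% and 4.88%. Thinning left out 1 cluster 16 cell and 57 other circulating cells with fewer UMIs. Over 4971 genes outside the interferon lists, the log levels of cluster 16 correlated with those of cluster 2 at r = 0.972, and with those of the other 5 circulating clusters at 0.915 to 0.954. This r is across genes, which are not independent, and is a description.

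**Figure D2:**
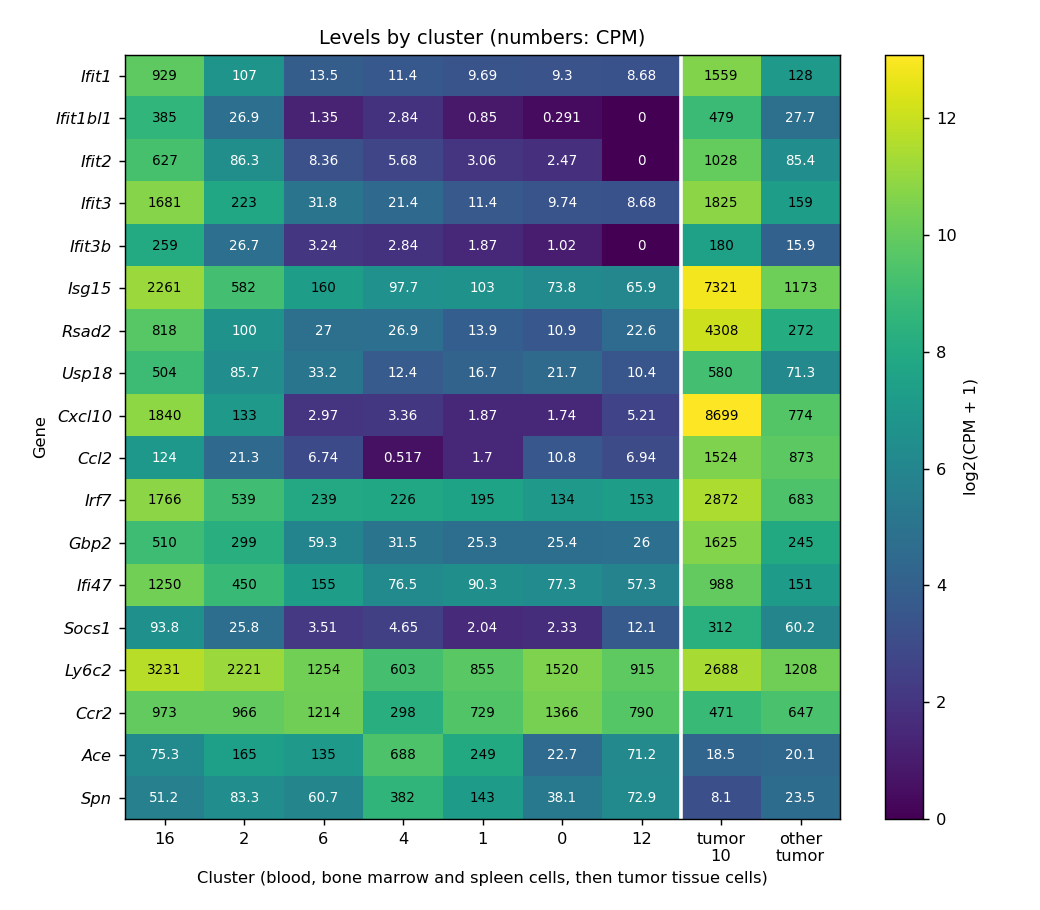
Levels of 18 genes (rows) in cluster 16, in 6 other circulating clusters and in 2 groups of tumor tissue cells (columns). Colour gives log2(CPM + 1) and the number in each field the CPM. The Ifit genes, Rsad2 and Cxcl10 are high in cluster 16 and tumor cluster 10, intermediate in cluster 2 and low in the other circulating clusters, while Ly6c2 is high throughout.

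Over all measured genes, those with at least 30 UMIs in both groups together and 20 CPM in either, 328 of 5422 (6.05%) were at least 2-fold higher in cluster 16 than in the other circulating cells, and 315 (5.81%) at least 2-fold lower. The interval lay wholly past 2-fold for 208 (3.84%) of the higher and 18 (0.332%) of the lower genes. Most lower calls thus had an interval that reached back within 2-fold. When each gene was recounted without the cell that held most of its UMIs, 283 higher and 309 lower calls remained. That recount moved the median log2 ratio to -0.29 and gave 540 lower genes in all. It leaves out a larger part of the 59 cells of cluster 16 than of the 2314 other circulating cells. Lower calls could thus hardly be lost, and the 309 that remained are no check of the lower side. Of all calls 51.0% were on the higher side, and 68.9% with median-of-ratios size factors, which moved the median log2 ratio of all measured genes to -0.05 from -0.19. Without naive blood the counts were 395 higher and 585 lower. Against cluster 2 alone they were 198 and 208 of 5322 genes.

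Most measured interferon-stimulated effectors were higher, and they were 53 of the 328 higher genes. Of the 64 listed, 59 were measured and 53 were at least 2-fold higher, 0 lower and 6 neither, with a median log2 ratio of 2.02 against -0.19 over all measured genes. Of the 53, 50 had intervals wholly past 2-fold. Since the cluster was known to be led by Ifit genes when the list was chosen, the count describes the cluster and is not independent of it. Rsad2, the antiviral radical enzyme viperin, stood at 818 CPM in cluster 16 against 33.9 CPM in the other circulating cells, 24.1-fold (21.7 to 26.8) higher. It was higher in 6 of 6 libraries, from 225.5 CPM in tumor-bearing spleen to 1081 CPM in tumor-bearing blood in cluster 16, against 26.8 to 44.6 CPM in other cells. Effectors that did not reach 2-fold included Adar, Samhd1, Ifi27, Ifi27l2a and Shisa5, with folds of 0.584 to 1.88.

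Members of each antiviral branch were among them. Of 9 measured genes of the oligoadenylate synthetase and Mx group, which sense double-stranded RNA or trap viral capsids, 8 were higher and 0 lower, with a median log2 ratio of 2.43. Oasl1 was 15.8-fold and Mx1, with 349.5 against 32.9 CPM, 10.6-fold (9.19 to 12.3) higher. All 5 genes of Isg15 conjugation were higher. Isg15 itself ran from 1832 CPM in naive spleen to 3118 CPM in tumor-bearing blood in cluster 16, against 148 to 375 CPM in the other cells of the 6 libraries, a range without overlap and an 11.49-fold (10.9 to 12.2) difference in the sums. Usp18, which removes Isg15 and also dampens the receptor, was 15.3-fold higher, the ligase Herc6 9.13-fold, the conjugating enzyme Ube2l6 7.02-fold and the activating enzyme Uba7 2.45-fold (1.77 to 3.32).

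The DNA-sensing Ifi200 family on chromosome 1 showed the same direction in all 5 of its genes found in the table, from 4.32-fold for Ifi204 to 9.79-fold (8.53 to 11.2) for Ifi205. Phf11d, at 280 CPM against 26.2 CPM, was 10.7-fold higher, and Pydc3, a small pyrin-domain gene, 9.05-fold. Among 9 measured nucleic acid sensors 4 were higher: the RNA helicases Ddx58 (7.13-fold), Ifih1 (6.66-fold) and Dhx58 (4.55-fold), and the sensor Zbp1 (3.60-fold). The DNA sensor gene Mb21d1 was at 1.84-fold (1.19 to 2.72), its adaptor Tmem173 at 0.935-fold and the endosomal receptor Tlr7 at 0.899-fold. Phf11, Oas1, Gbp, Slfn and Ifi200 genes have close copies, so the split of reads within each family is uncertain.

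The interferon-inducible GTPases, which act on membranes around intracellular pathogens and respond strongly to interferon gamma, were higher as well. All 10 measured genes passed 2-fold, with a median log2 ratio of 2.29. Gbp7 stood at 457 and 352 CPM in cluster 16 of tumor-bearing and naive blood, against 29.4 and 28.4 CPM in the other cells of these libraries. It stood at 327 and 305 CPM in cluster 16 of tumor-bearing and naive bone marrow, against 71.0 and 29.5 CPM, and at 319.5 and 399 CPM in tumor-bearing and naive spleen, against 52.1 and 22.6 CPM. Cluster 16 was thus higher in 6 of 6 libraries without overlap, and 10.7-fold (9.27 to 12.3) higher in sum. Ifi47 was 7.75-fold, Gbp2 6.13-fold and Irgm1 4.76-fold higher. Over cluster 2 these genes were closer than the Ifit genes, with 1.70-fold for Gbp2 and 3.82-fold for Gbp7, and 6 of 10 passed 2-fold there.

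No transcript of an interferon itself was seen in the cluster. The 10 listed interferon genes, among them Ifnb1, Ifna4 and Ifng, had 0 UMIs in the 59 cells, and so had 9 of the 10 in the other circulating cells. Of 7 measured genes for the receptors and their kinases, 0 were higher and 1 was lower. That gene was Ifngr1, the ligand-binding chain of the interferon gamma receptor. It stood at 346.5 CPM in cluster 16 of tumor-bearing blood, against 748.5 CPM in other cells, and at 296 against 749 CPM in naive blood. It stood at 245 against 573 CPM in tumor-bearing and 345.5 against 558 CPM in naive bone marrow, and at 376 against 704.5 CPM in tumor-bearing and 317 against 748 CPM in naive spleen. It was thus lower in 6 of 6 libraries, and no value of cluster 16 reached one of the other cells. In sum Ifngr1 was 2.32-fold (2.03 to 2.66) lower, while Ifnar1 was at 0.631-fold (0.436 to 0.884), Ifnar2 at 1.05-fold and Ifngr2 at 0.987-fold. Against cluster 2 alone Ifngr1 did not pass 2-fold, at 0.540-fold (0.469 to 0.620).

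Among transcription factors of the pathway 3 of 10 measured genes were higher, with a median log2 ratio of 0.38. Irf7, the factor that amplifies the response, stood at 1766 CPM against 256 CPM, 6.91-fold (6.499 to 7.34) higher. Stat2 was 4.76-fold higher, in 6 of 6 libraries. Irf9, its DNA-binding partner, was at 1.21-fold (0.949 to 1.52), Irf1 at 1.71-fold and Irf8 at 0.994-fold. Of 5 measured feedback genes 2 were higher and 1 lower. Socs1, an inhibitor of Jak kinases, was 12.2-fold (9.06 to 16.1) higher from 66 UMIs in 28 of the 59 cells, and Socs3, with 12 UMIs, was 3.09-fold lower.

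Of 16 listed chemokine genes 4 were measured and 2 of these were higher, Cxcl10 and Ccl2. Cxcl10 is the ligand of Cxcr3 and draws activated T cells. Cxcl10 stood at 4213 CPM in cluster 16 of tumor-bearing blood, against 48.5 CPM in other cells, and at 1846 against 21.3 CPM in naive blood. It had 0 UMIs in the single cluster 16 cell of tumor-bearing bone marrow, against 238 CPM in other cells, and stood at 2601 against 28.2 CPM in naive bone marrow. Those other cells of tumor-bearing bone marrow include the 1 cluster 10 cell of the circulating libraries, whose part in the 238 CPM was not tested. Pooled over libraries, Cxcl10 stood at 133 CPM in cluster 2 and at 1.74 to 5.21 CPM in clusters 6, 4, 1, 0 and 12. In spleen it stood at 207 against 30.01 CPM in tumor-bearing and at 646 against 14.8 CPM in naive mice. It was higher in 5 of 6 libraries and 57.1-fold (52.3 to 62.3) higher in sum, and the level in blood lay above that in spleen in both states.

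Cells of cluster 16 differed widely in this gene. Cxcl10 was at 0 UMIs in 15 of the 59 cells and at 10 or more in 25, and 5 cells held 43.6% of its 1295 UMIs. Cells with 10 or more Cxcl10 UMIs were, in blood, 4 of 5 from tumor-bearing and 17 of 35 from naive mice, 0 of 1 and 2 of 5 in tumor-bearing and naive bone marrow, and 0 of 5 and 2 of 8 in tumor-bearing and naive spleen. For Ifit3 the 5 top cells held 22.7% of its UMIs and for Isg15 they held 19.7%. Ccl2, which draws monocytes, was 14.6-fold (11.2 to 18.8) higher, but 5 cells held 58 of its 87 UMIs, and it was detected in 20 cells. The other 2 measured chemokines, Ccl6 and Ccl9, stood at 1097 and 712 CPM in cluster 16, at 0.877-fold and 1.47-fold.

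Of 5 measured cytokine genes 3 were higher. Il15, which sustains natural killer cells, was 4.65-fold (3.59 to 5.93), Il18 3.87-fold (3.18 to 4.68) and Tnfsf10, the death ligand TRAIL, 14.7-fold (8.78 to 24.0) higher, the last from 24 UMIs. Il1b, at 75.3 CPM against 138 CPM, was at 0.547-fold (0.409 to 0.717). Among 4 measured checkpoint and costimulatory genes Lgals9 (4.11-fold) and Cd40 (3.29-fold, 2.55 to 4.20) were higher and Havcr2 lower. Of 14 measured genes of antigen presentation by MHC class I, 4 were higher, against 6.05% of all measured genes. The median log2 ratio was 0.66, against -0.19 over all measured genes. These were the peptide transporter Tap1 (2.54-fold), the immunoproteasome subunit Psmb9 (2.19-fold), the transactivator Nlrc5 (2.79-fold) and H2-T23 (2.18-fold), while H2-K1, H2-D1 and B2m were at 1.29-fold, 1.10-fold and 1.19-fold. Against cluster 2 alone Tap1, Psmb9, Nlrc5 and H2-T23 did not pass 2-fold, at 1.37-fold to 1.55-fold. Of 7 MHC class II genes 0 passed 2-fold in either direction against the other circulating cells. H2-Ab1 stood at 402 CPM against 523 CPM, with 231 of its 283 UMIs in 5 cells of the cluster.

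**Figure D3:**
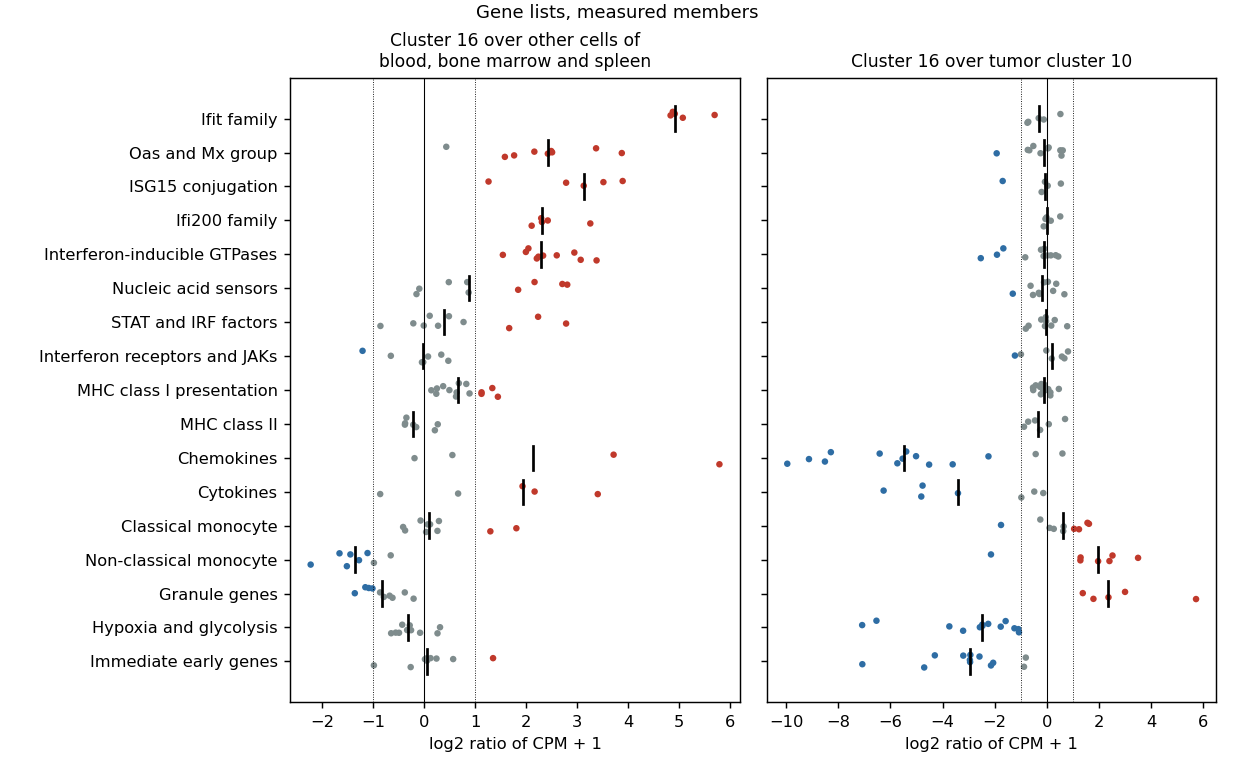
Log2 ratios of CPM + 1 (x axis) of the measured genes of 17 lists (rows), for cluster 16 over the other circulating cells on the left and over tumor cluster 10 on the right, with 1 point per gene. Red and blue points are at least 2-fold higher and lower on this scale, the dotted lines mark 2-fold and the black bars the median of a list. The interferon lists lie right of 0 on the left and around 0 on the right, where chemokines, cytokines, hypoxia and immediate early genes lie left of 0.

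Classical monocyte markers summed to 12484 CPM in cluster 16, against 10918 CPM in the other circulating cells, and non-classical ones to 722 against 1603 CPM. Of the 10 classical genes measured, 2 passed 2-fold upward and 0 downward, with a median log2 ratio of 0.09. Ly6c2, whose close copy Ly6c1 may share reads, stood at 4324 CPM in cluster 16 of tumor-bearing blood, against 1202 CPM in other cells, and at 2987 against 1291 CPM in naive blood. It was 2.46-fold (2.36 to 2.57) higher in sum and higher in 6 of 6 libraries. Against cluster 2 alone Ly6c2 did not pass 2-fold, at 1.45-fold (1.39 to 1.52). Ccr2, the receptor for exit from bone marrow, was at 1.03-fold (0.9502 to 1.11), and F13a1, Chil3 and Hp were between 0.952-fold and 1.08-fold.

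Of 8 non-classical genes measured, 6 passed 2-fold downward and 0 upward, with a median log2 ratio of -1.36. Ace, the angiotensin-converting enzyme, stood at 75.3 CPM against 217 CPM and was 2.89-fold (2.20 to 3.86) lower. It was lower in 4 of 6 libraries, with 491 CPM in the single cluster 16 cell of tumor-bearing bone marrow against 46.2 CPM in other cells. Treml4, a receptor of the same subset, was 3.23-fold lower and Eno3 5.11-fold lower, while Spn and Ear2 stood at 51.2 and 44.05 CPM in cluster 16 against 125.5 and 122 CPM. Cluster 4, where Ace and Spn reached 688 and 382 CPM, is among the other circulating cells. Against cluster 2 alone Ace was at 0.457-fold (0.339 to 0.603) and Treml4 at 0.387-fold. Spn, Ear2, Itgal, Cx3cr1 and Nr4a1, at 0.519-fold to 0.748-fold, did not pass 2-fold there, and Eno3 was not measured.

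The 10 lowest genes by rank included Treml4 and Eno3, given above. Cd244, a receptor of the SLAM family, stood at 13.9 CPM in cluster 16 of both tumor-bearing and naive blood, against 102 and 77.6 CPM in other cells. It had 0 UMIs in cluster 16 of both bone marrow libraries, against 80.9 CPM in other cells of tumor-bearing and 25.5 CPM of naive mice, and stood at 56.4 against 120 CPM in tumor-bearing and 11.7 against 104 CPM in naive spleen. It was lower in 6 of 6 libraries and 5.92-fold lower in sum, from 11 UMIs. Slc12a2, a sodium, potassium and chloride cotransporter, had 0 UMIs in cluster 16 and 525 in the other circulating cells, at least 4.75-fold lower at a floor of 3 UMIs over the cluster. Havcr2, the inhibitory receptor Tim-3, had 2 UMIs in cluster 16 (9.70-fold lower) and Cpd, a carboxypeptidase, 1 UMI (16.4-fold lower, 2.94 to 649.6). The tetraspanin Cd9 was 6.58-fold, the TGF-beta receptor Tgfbr1 3.82-fold, the isoprenoid enzyme Fdps 3.65-fold and the inhibitory receptor Pilra 3.21-fold lower.

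Other lists are given by count, where 6.05% of all measured genes were higher and 5.81% lower. Of 11 measured chemokine receptors and adhesion molecules 2 were higher and 3 lower. Cxcr4, the marrow retention receptor, was among the lower ones, at 38.4 CPM against 91.7 CPM. Of 10 granule genes 4 were lower, among them S100a8 at 651 CPM against 1383 CPM, and 0 higher. Of 10 measured hypoxia and glycolysis genes 0 passed 2-fold, and of 9 immediate early genes 1 did, Atf3 at 2.58-fold (2.06 to 3.20). Of 14 cell cycle genes Pcna and Hmgb2 were measured and neither passed 2-fold, and Top2a, Ccnb1, Cdk1, Birc5 and Mcm2 had 0 UMIs in cluster 16. Of 8 measured Bcl2 family genes 2 were lower, Bcl2 from 1 UMI and Bcl2a1a from 6, and of 4 Ifitm genes Ifitm1 was lower, at 17.05 CPM against 48.8 CPM.

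Pooled over libraries, the surface proteins read by antibody tags differed by less than 1.5-fold. The headers name the cluster columns after an RNA neighbour graph, so the 47 tags were not an input of the clustering by these names, but with 1 library per group they too have no test. With tag counts scaled to 10000 per group, 0 of 47 tags reached 1.5-fold between cluster 16 and the other circulating cells, and the ratios ran from 0.827 to 1.10, with a median of 0.958. The median cluster 16 cell held 7591 tag counts in tumor-bearing blood, 2286 in naive blood and 1651 in tumor-bearing spleen. Pooled tag ratios thus weigh tumor-bearing blood by more than its share of cells. The Ly-6C tag stood at 3213 in cluster 16 against 2928 per 10000 in the other cells, and it was higher in 4 of 6 libraries. The lowest ratios were those of Sca-1 (0.827), CD16.2 (0.830) and I-A-I-E (0.833). By library Sca-1 was lower in 5 of 6, but CD16.2 was higher in 4 of 6 and I-A-I-E in 3 of 6, so the pooled ratios of these 2 tags show no common direction. Weighting the other cells to the library mix of cluster 16 brought the range to 0.882 to 1.08. CD14 was lower in 6 of 6 libraries, with 34.9 to 52.5 per 10000 in cluster 16 against 47.7 to 64.4 in other cells, ranges that overlap. CD88 was higher in 6 of 6, by a ratio of 1.03.

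In single libraries 8 tags passed 1.5-fold, 4 of them in a library with more than 1 cluster 16 cell. CD115 was lower in both spleen libraries, with 334 in cluster 16 against 662 per 10000 in other cells of tumor-bearing mice and 279 against 486 in naive mice, while in blood it stood at 885 against 769 and 896 against 906 in tumor-bearing and naive mice. CD16.2 stood at 76.6 against 189 in tumor-bearing blood and at 129.5 against 109 in naive blood. I-A-I-E stood at 85.9 against 161 and CD11c at a ratio of 0.581 in tumor-bearing spleen. The single cluster 16 cell of tumor-bearing bone marrow had 986 for H-2, against 484 in other cells.

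For some antigens the RNA ratio lay farther from 1 than the pooled tag ratio. Fcgr1, the high-affinity receptor for IgG, stood at 891 CPM against 157 CPM, 5.66-fold (5.20 to 6.16) higher, and its tag CD64 was at 0.994. Fcgr4 was 2.81-fold (2.23 to 3.51) higher in RNA with the CD16.2 tag at 0.830 when pooled and higher in 4 of 6 libraries, and Ly6a 3.56-fold (2.80 to 4.46) higher with the Sca-1 tag at 0.827. Ly6c2 RNA was 2.46-fold higher with the Ly-6C tag at 1.10. Against cluster 2 alone the RNA of Fcgr4 and Ly6c2 did not pass 2-fold, at 1.67-fold (1.30 to 2.12) and 1.45-fold. Cd9 RNA, with 4 UMIs in the cluster, was 6.58-fold lower and its tag at 0.967. How far unspecific tag counts compress these ratios was not tested.

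**Figure D4:**
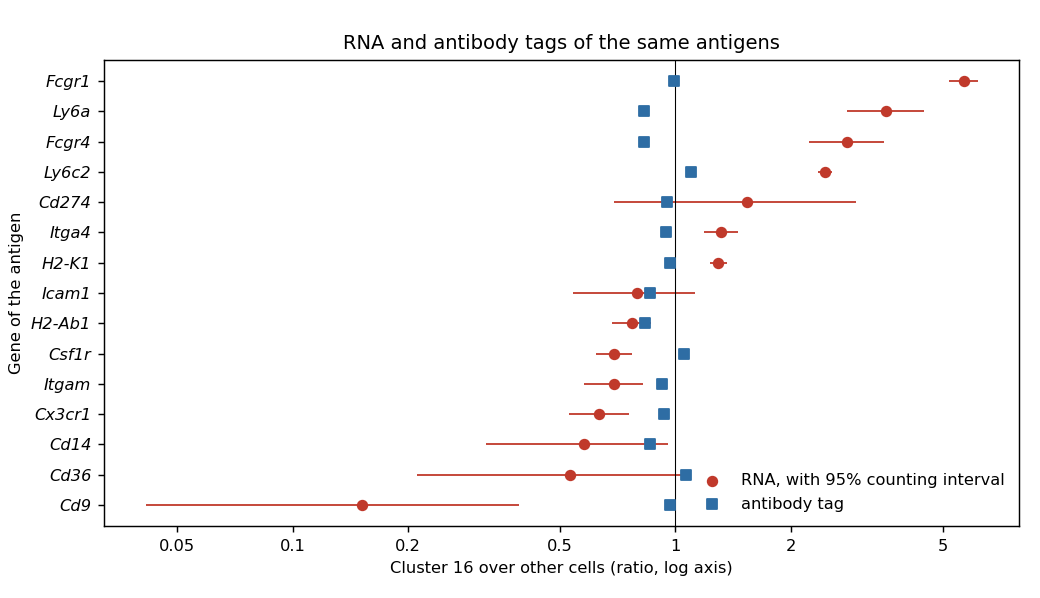
Ratio of cluster 16 over the other circulating cells (x axis, log scale) for the RNA of 15 genes (red circles, with 95% counting intervals) and for the antibody tag of the same antigen (blue squares). RNA ratios run from 0.152 for Cd9 to 5.66 for Fcgr1, while all the pooled tag ratios lie between 0.827 and 1.10.

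Tumor cluster 10 is the interferon-high group of the tumor tissue, and cluster 16 was compared with it gene by gene. Its 198 cells come from a single library, so cluster and tissue cannot be told apart. The interferon-stimulated effectors stood at like levels in both: of 59 measured, 1 was at least 2-fold higher in cluster 16, 7 were lower and 51 neither, with a median log2 ratio of -0.12 against 0.22 over all measured genes. Of all genes measured in this comparison 17.5% were higher and 12.6% lower. Ifit3 stood at 1681 CPM in cluster 16 and 1825 CPM in cluster 10, Ifit1 at 929 and 1559 CPM, Ifit2 at 627 and 1028 CPM, and Ifit3b at 259 and 180.04 CPM. None of the 5 measured Ifit genes passed 2-fold. Slfn1, a schlafen family gene, was the effector 2.40-fold higher in cluster 16. Isg15 was at 2261 CPM in cluster 16 and 7321 CPM in cluster 10, and Rsad2 at 818 and 4308 CPM. The other 5 lower effectors were Isg20, Oasl1, Trim25, Slfn4 and Cd69, at 0.133-fold to 0.386-fold.

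Within a cell the list took a median of 3.21% of UMIs in cluster 16 and 4.14% in cluster 10, and 156 of the 198 cluster 10 cells reached the cluster 16 median. Of the interferon-inducible GTPases 3 of 11 were lower, against 12.6% of all measured genes. These were Gbp2 (510 against 1625 CPM), Gbp4 and Iigp1. Each cluster can also be set against the other cells of its own tissues. Cluster 10 was at least 2-fold higher than the other tumor cells in 366 of 5181 measured genes (7.06%) and lower in 687 (13.3%), and 53 of 60 interferon-stimulated effectors were among the higher ones. Of the 4667 genes measured in both comparisons, 290 were higher in cluster 16, 318 in cluster 10 and 238 in both. Of the 290, 82.1% were also higher in cluster 10, against 7.06% of all genes measured in its comparison. Of the 318, 74.8% were also higher in cluster 16, against 6.05% of all genes measured over the other circulating cells.

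The gene-wide comparison with tumor cluster 10 had many more differences. Cluster 16 was 2-fold or more higher in 883 of 5057 measured genes (17.5%) and lower in 636 (12.6%), with intervals wholly past 2-fold for 236 (4.67%) and 370 (7.32%). Of these calls 58.1% were on the higher side, and 35.4% with median-of-ratios size factors, which moved the median log2 ratio to -0.11. The lower side held inflammatory genes. Of 14 measured chemokines 12 were lower and 0 higher, with a median log2 ratio of -5.47. Ccl4 had 1 UMI in cluster 16 against 2337 in cluster 10, Cxcl2 had 0 against 1718 UMIs (at least 233-fold lower), and Cxcl9 had 1 against 1528. Cxcl10, high in both, stood at 1840 CPM in cluster 16 and 8699 CPM in cluster 10.

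Il1b, the inflammatory cytokine, stood at 75.3 CPM in cluster 16 against 5859 CPM in cluster 10 and was 77.8-fold lower. Cd14, the coreceptor for lipopolysaccharide, was 85.4-fold lower, Tgm2, a transglutaminase, 81.4-fold and Ier3, an immediate early gene, 145-fold. Spp1, the secreted protein osteopontin, and Basp1 had 0 UMIs in cluster 16 and were at least 112-fold and 113-fold lower. The maturation marker Cd83 had 1 UMI in cluster 16 against 762 in cluster 10. All 13 measured hypoxia and glycolysis genes were lower in cluster 16, with a median log2 ratio of -2.47, among them Vegfa with 2 UMIs against 615 and Ldha at 197.5 against 1099 CPM. Of 12 measured immediate early genes 10 were lower and 0 higher, such as Fos at 274 against 2541 CPM.

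Higher in cluster 16 were most measured non-classical and some classical monocyte genes, in a comparison where 17.5% of all measured genes were higher. Of 7 measured non-classical genes 6 were higher and Nr4a1 was lower, with a median log2 ratio of 1.97. Cx3cr1, the fractalkine receptor, stood at 180.5 CPM against 15.1 CPM and was 11.99-fold (7.82 to 19.1) higher. Of 10 classical genes 4 were higher, Vcan was lower and 5 were neither. Their median log2 ratio was 0.63, against 0.22 over all measured genes. Hp and Mgst1 were 3.07-fold and 2.95-fold higher, F13a1 2.36-fold and Ccr2 2.07-fold. The leading genes by rank were Lpl, encoding lipoprotein lipase (36.4-fold, 16.1 to 101.9, with 35 of its 89 UMIs in 1 cell), and Hpgd, a prostaglandin-degrading enzyme (17.9-fold, 10.9 to 31.1). Il16 followed at 27.0-fold, Cbfa2t3, a corepressor, at 11.52-fold, Add3, an adducin of the membrane skeleton, at 8.02-fold, the myeloid factor Cebpa at 7.98-fold, and Itga4, an integrin chain, at 5.14-fold.

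Single cells moved the folds of granule transcripts in this comparison. Retnlg had 58 UMIs in cluster 16, 28 of them in 1 cell, against 1 UMI in cluster 10. S100a9 was 8.06-fold higher, with 212 of 650 UMIs in 1 cell of cluster 16 and 186 of 198 in 1 cell of cluster 10, and 91.1-fold higher without these cells. S100a8 was 5.18-fold higher, with 176 of 458 UMIs in 1 cell of cluster 16 and 204 of 217 in 1 cell of cluster 10, and 53.9-fold higher without them. Bmyc, Nxpe4, Hps3 and Hacd4 completed the named higher genes, with folds of 5.69 to 21.5.

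On the surface 7 of 47 tags differed by 1.5-fold or more between cluster 16 and tumor cluster 10. CD115, the receptor for colony-stimulating factor 1 that marks circulating monocytes, stood at 789 per 10000 tag counts in cluster 16 and 131 in cluster 10, and CD97 was 1.69-fold higher. CD14 stood at 45.3 in cluster 16 and 98.3 in cluster 10, I-A-I-E, an MHC class II epitope, at 99.7 and 193.5, and Sca-1, IL23R and CD88 at ratios of 0.628, 0.648 and 0.658. The CD14 tag and Cd14 RNA were thus both lower in cluster 16.

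Differences between tissues and states within cluster 16 could be read only as values, since naive blood alone held 10 or more of its cells. Ifit3, Ifit1, Isg15 and Rsad2 stood higher in tumor-bearing than in naive blood within the cluster, at 2702 against 1721, 1372 against 966, 3118 against 2267 and 1081 against 908 CPM. In spleen Ifit3, Ifit1 and Rsad2 stood at 864.5 against 1515, 564 against 845.5 and 225.5 against 658 CPM in tumor-bearing and naive mice, the other way round, while Isg15 stood at 1917 against 1832 CPM. The tumor-bearing values rest on 5 cells in each tissue, and no comparison across genes was run within the cluster.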

How the data were processed

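RNA and antibody tags of single cells were read with Chromium 3' chemistry, per the labels' protocols. The tables that the authors deposited hold raw UMI counts for 25127 genes, antibody tag counts for 47 antibodies and a cell annotation with clusters and a mitochondrial fraction. Reads were processed with Cell Ranger on mm10, per the submitters' processing notes. Their versions and the cell filters are not stated in these sources. The deposited normalized values were not used. No cell was filtered out and no doublet caller was run. The alternative for doublets dropped, library by library, the 2% of cells richest in UMIs.

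UMIs were summed over cells and scaled to CPM. Genes with at least 30 UMIs in 2 groups together and 20 CPM in either were measured and called at 2-fold. A pseudo-count of 1 CPM entered log2 ratios of lists and 10 CPM the ranking. The scripts (Python 3.11.15, numpy 2.4.6, scipy 1.17.1, pandas 2.3.3, matplotlib 3.10.9) were tested on simulated data. Named genes were the 15 highest and 10 lowest by rank, the Ifit genes and members of 25 lists. Members, lists and tests were chosen with earlier results of these data known. Coordinates are those of GENCODE annotation on GRCm38, the build also called mm10. Depth was 617821 to 20844058 UMIs per library, and intervals cover counting error only. Values of some listed genes are not reported here. A floor of 3 UMIs was used against 0.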

Additional observations from a re-analysis of the deposited data

Results flagged for a closer look

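A search over 25 genes and 47 tags, with 4 contrasts of tissue or state each (288 comparisons), looked for a ratio of cluster 16 over the other cells that lay above 1 in both libraries of one tissue or state and below 1 in both of another. It found 0 genes and 18 cases of tags. The difference was not tested in any of them. Many of the ratios lie near 1, and how many such cases random signs alone would give was not computed. Each tissue is 2 libraries, tumor-bearing bone marrow rests on 1 cluster 16 cell, and values are mean ratios over 2 libraries. In bone marrow against blood, the mean ratios were 1.55 in bone marrow and 0.902 in blood for H-2, 1.27 and 0.938 for Ly-6G, 1.23 and 0.979 for F4-80, 1.16 and 0.880 for CD54, 1.15 and 0.961 for IL23R, and 1.10 and 0.944 for CD305. The opposite order was seen for CD49D (0.9001 in bone marrow and 1.002 in blood), CD84 (0.921 and 1.04) and Ly-6C (0.941 and 1.15). In bone marrow against spleen they were 1.23 in bone marrow and 0.916 in spleen for F4-80, 1.13 and 0.539 for CD115, 1.12 and 0.924 for CD206, and 1.03 and 0.869 for Cx3cr1, with CD81 (0.935 and 1.03) and Ly-6C (0.941 and 1.13) the other way. In blood against spleen CD45 was at 0.877 in blood and 1.02 in spleen, VISTA at 0.920 and 1.06, and IL23R at 0.961 and 1.05. No group held 4 to 10 samples, so single samples could not be checked as outliers.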

How the results depend on the processing

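No paired test was run, and no result comes from a test. Each tissue and state has a single library, and the labels give no link between tissues of an animal. Cluster 16 and the other circulating cells of the same library are set side by side only as directions over 6 libraries. The interferon-stimulated list kept 36 to 56 higher genes under all 17 alternatives against the other circulating cells, the lowest being 36 of 58 measured against cluster 2 alone, and its count against tumor cluster 10 stayed at 1 except for 0 with median-of-ratios size factors. Folds of Ifit1 ran from 30.6 to 34.6, of Ifit3 from 28.5 to 33.1 and of Ifit3b from 36.8 to 45.0, and 0 tags reached 1.5-fold under both tag alternatives. Gene counts depended more on the settings. Against the other circulating cells, lower genes (315) came to 566 with cells thinned to 5000 UMIs, 540 without the top cell of each gene, 178 with median-of-ratios size factors, 208 against cluster 2 alone and 5088 with no minimum. Higher genes (328) came to 198 against cluster 2 alone and 1007 with no minimum. Without each library in turn the higher genes were 314 to 395 and the lower 307 to 585, the last without naive blood. Against tumor cluster 10 the higher genes (883) came to 499 thinned, 501 with median-of-ratios size factors and 3282 with no minimum, and the lower (636) to 2343 with no minimum. Without each library in turn these came to 696 to 892 higher and 634 to 685 lower genes. The cause of these shifts was not tested. On the lower side 18 of 315 intervals lay wholly past 2-fold, and why so few did was not tested. Comparisons within cluster 16 between tissues or states were not run, since they need 10 cells in each library.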

Other observations

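The following lists were written after values of these data had been seen, so they describe and support nothing. Enzymes of cholesterol synthesis lay on the lower side of cluster 16 against the other circulating cells. Of 12 measured genes 7 were at least 2-fold lower, against 5.81% of all measured genes, and 0 higher, with a median log2 ratio of -0.97 against -0.19 over all measured genes, although the interval lay wholly past 2-fold for 1 of them. Fdps, which makes farnesyl diphosphate, stood at 21.3 CPM in cluster 16 against 77.7 CPM in the other circulating cells. Cyp51, a later enzyme of the pathway, stood at 15.6 against 36.9 CPM and Msmo1 at 18.5 against 44.0 CPM. Clusters 0 and 12 had levels of the same order: Fdps stood at 26.3 CPM in cluster 0 and 19.1 CPM in cluster 12, and Cyp51 at 7.99 and 10.4 CPM, while cluster 4 had 152 and 68.2 CPM. Against cluster 2 alone Fdps was lower, and Cyp51 and Msmo1, at 0.526-fold and 0.60045-fold, did not pass 2-fold. Against tumor cluster 10, 11 of 14 measured genes were lower, against 12.6% of all measured genes, and 0 higher, against 17.5%.

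Genes of ribosome assembly in the nucleolus showed 6 of 13 measured genes lower, against 5.81% of all measured genes, and 0 higher, with a median log2 ratio of -0.69, and 0 intervals wholly past 2-fold. Nop56, a core protein of small nucleolar ribonucleoproteins, stood at 7.10 CPM in cluster 16 against 30.5 CPM in the other circulating cells, Nop58 at 5.68 against 21.1 CPM and Nhp2 at 24.2 against 64.4 CPM. The abundant Npm1 and Ncl were at 0.926-fold and 1.08-fold. Tumor cluster 10 had 11 of 13 measured genes of this list lower than the other tumor cells, against 13.3% of all measured genes. Ribosomal protein genes took 15.97% of UMIs in cluster 16 and 17.3% in the other circulating cells.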
